A study of Mus musculus with 116 samples.

Results

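The C/EBP family of transcription factors was followed through a time course of FDB1 cells, a mouse myeloid line that needs added growth factor. Members were the array probes whose platform gene symbol was Cebpa, Cebpb, Cebpd, Cebpe, Cebpg or Cebpz. Of these 6 genes 4 had a probe, 1 probe each, so the family is 4 of 15097 gene symbols on the array and 4 of the 21797 probes tested. Cebpe and Cebpz had no probe under this rule and were not analysed here. V449E cells carry the V449E mutant of the GM-CSF receptor and FI-Delta cells carry the FI-Delta mutant. Both mutant lines grew in IMDM with fetal calf serum (10%) and mouse IL-3 at 500 U/mL, were washed 3 times at 0 hours and were then left without factor. Parental FDB1 cells grew in the same IL-3 medium, were washed in the same way and were moved to 500 U/mL of mouse GM-CSF. RNA was taken at 0 hours and at 5 later times (6, 12, 24, 48 and 72 hours), in 2 replicates for each of 18 conditions, and parental cells at 0 hours are the start of the GM-CSF course. The labels do not say how the mutant receptors were introduced or whether a line is a single clone.

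C/EBP proteins are basic leucine zipper factors that bind DNA as homodimers or heterodimers at short palindromic sites. C/EBP alpha, the product of Cebpa, is required for the granulocyte and monocyte path and holds back cell division. C/EBP beta and C/EBP delta, from Cebpb and Cebpd, are induced by cytokines and inflammatory signals, and C/EBP beta serves granulocyte production under stress and macrophage genes. C/EBP gamma, from Cebpg, has no activation domain of its own and pairs with other family members and with ATF4. Cebpe encodes the factor of late granule genes, and Cebpz encodes a CCAAT-binding nucleolar protein without a leucine zipper.

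Promoter windows of 3 of the 6 members were taken from RefSeq on GRCm38.p6, to show the short elements near the start of the genes whose RNA is described here. Each window holds 250 bases before and 50 bases after the annotated start, 5′ to 3′ on the strand of the gene. Capitals mark TTGCGC, the core of a C/EBP site, TGACG, the core of a cyclic AMP response element, and CCAAT, the CCAAT box, on either strand. None of the marked matches overlaps another. The Cebpa window lies on the plus strand of chromosome 7 at chr7:35119043-35119342, the Cebpb window on the plus strand of chromosome 2 at chr2:167688665-167688964, and the Cebpg window on the minus strand of chromosome 7 at chr7:35056517-35056816.
Cebpa: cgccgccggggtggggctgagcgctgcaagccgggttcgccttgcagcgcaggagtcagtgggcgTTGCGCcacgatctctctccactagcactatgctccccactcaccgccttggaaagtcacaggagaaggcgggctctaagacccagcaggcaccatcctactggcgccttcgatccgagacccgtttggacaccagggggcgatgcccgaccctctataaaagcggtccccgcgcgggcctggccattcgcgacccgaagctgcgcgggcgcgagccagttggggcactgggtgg
Cebpb: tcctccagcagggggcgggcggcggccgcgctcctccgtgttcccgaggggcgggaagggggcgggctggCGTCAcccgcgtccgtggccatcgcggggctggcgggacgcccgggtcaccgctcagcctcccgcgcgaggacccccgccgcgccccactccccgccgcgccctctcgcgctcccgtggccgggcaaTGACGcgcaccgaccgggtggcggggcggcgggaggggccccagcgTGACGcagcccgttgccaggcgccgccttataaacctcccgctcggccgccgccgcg
Cebpg: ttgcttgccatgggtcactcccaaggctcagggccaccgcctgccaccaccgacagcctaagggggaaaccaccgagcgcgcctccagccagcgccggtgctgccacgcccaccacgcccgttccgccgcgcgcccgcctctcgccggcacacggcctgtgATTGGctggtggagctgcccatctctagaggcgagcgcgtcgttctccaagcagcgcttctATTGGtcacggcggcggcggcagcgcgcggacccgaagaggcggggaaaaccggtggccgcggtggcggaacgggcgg
The Cebpa window held 1 TTGCGC, starting at position -185 from the start of the gene, a core that 6.49% of 32851 mouse promoter windows of the same length hold. The Cebpb window held 3 TGACG matches, starting at positions -180, -53 and -7, the first of them on the minus strand; 20.8% of the windows hold at least 1. The Cebpg window held 2 CCAAT boxes on the minus strand, starting at positions -89 and -28, and 37.4% of the windows hold at least 1. TATAAA, the TATA box, is not capitalised and was found in the Cebpa window, starting at position -30. In the Cebpb window these letters started at position 22, after the annotated start. TATAAA was found in 13.6% of all windows, on either strand. In the same annotation the Cebpa gene spans bases 35119293 to 35121928 of chromosome 7, and Cebpg lies at 35046422 to 35056566, with 62726 bases between them. Cebpb is on chromosome 2 at 167688915 to 167690432 and Cebpd on chromosome 16 at 15887286 to 15889545.

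The values are ratios of 2 RNAs on the same array, from 116 arrays in 58 dye-swap pairs over 28 comparisons, with 4 arrays a comparison and 8 for V449E against parental cells at 0 hours. They were read as log2 of the Cy5 over the Cy3 signal; the sources used here state neither base nor direction, and this direction is the likely one because limma writes its ratios so. Under the other direction every sign below would turn, and with it each higher and lower, each highest and lowest. Array medians lay between -0.016 and 0.011, each condition was on 8 to 32 arrays, and the 2 arrays of a pair correlated between -0.653 and -0.0327 over all tested probes. Levels below are log2 values relative to the mean of the 18 RNAs of the same replicate, so a level compares conditions for a gene and never 1 gene with another. Ratios give no absolute level, so defining markers of the labelled myeloid cells could not be checked for presence. A difference is called where limma's adjusted p is under 0.05 over all 21797 probes. Print run 2 holds 26 arrays, among them all replicate 2 arrays of the GM-CSF course and of its comparisons with FI-Delta, so replicate and print run cannot be told apart there. Whether the replicates came from different cultures is not in the labels, so p-values cover the spread of these samples alone, and that spread may be technical. In bulk RNA, fewer cells of a type and less RNA per cell cannot be told apart.

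The 4 genes ran in 2 pairs over the 18 conditions. Cebpb and Cebpd both had high levels from 24 hours in GM-CSF and from 12 hours in FI-Delta cells without factor. Of the 2, Cebpd alone was above 0 at 12 hours in GM-CSF, at 0.26. The same held in V449E cells, where Cebpd was at 0.04, 0.21 and 0.12 at 6, 12 and 24 hours. Cebpa and Cebpg were highest in V449E cells and lowest late in GM-CSF or in FI-Delta cells. The mean level of Cebpd spanned 1.39 on the log2 scale, a 2.62-fold range, with the highest mean in FI-Delta cells at 72 hours and the lowest in GM-CSF at 6 hours. Cebpb spanned 1.06, with its highest mean in FI-Delta cells at 24 hours and its lowest in parental cells at 0 hours. Cebpa spanned 0.94, with the highest mean in V449E cells at 48 hours and the lowest in GM-CSF at 72 hours. Cebpg had the narrowest range of the 4, 0.73, between V449E cells at 72 hours and FI-Delta cells at 48 hours. With conditions in order of level, none of the 17 steps between neighbours exceeded the 95% bound of a difference for any of the 4 genes in limma. The standard deviation over the 18 condition means stood at the 97.4th percentile of all probes for Cebpa, the 98.2nd for Cebpb, the 98.9th for Cebpd and the 90.1st for Cebpg.

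**Figure D1:**
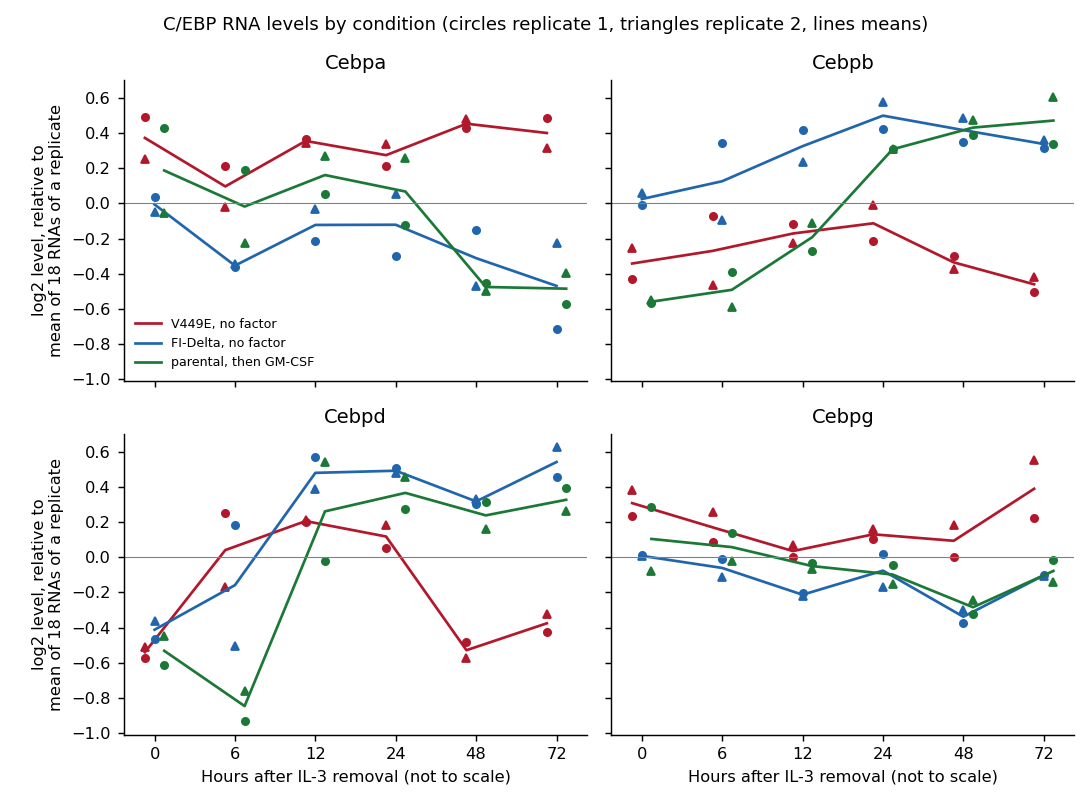
Log2 level of each C/EBP gene (vertical axis, relative to the mean of the 18 RNAs of a replicate) against hours after IL-3 removal, with circles for replicate 1, triangles for replicate 2 and lines through their means. Cebpd reaches 0.54 at 72 hours in FI-Delta cells and 0.33 in GM-CSF, while V449E cells are at -0.38.

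After IL-3 was replaced by GM-CSF, parental cells had higher Cebpb and Cebpd RNA and lower Cebpa RNA. Of 20 tests (4 genes at 5 times) 8 were called, against 2.25% of all probe tests of these 5 comparisons in either direction. Of the 8, 7 were higher and 1 lower. By time, 0.44%, 2.92%, 1.1%, 1.32% and 5.47% of probes were called at 6, 12, 24, 48 and 72 hours. Cebpb stood at 0.34 and 0.60 after 72 hours in GM-CSF, against -0.57 and -0.55 in parental cells at 0 hours, with no overlap of the replicates. The 4 arrays that set these RNAs against each other read 0.85, 1.02, 1.09 and 1.20, all above 0. Cebpb was higher by 0.87 at 24 hours (SE 0.13, adjusted p = 7.19e-04), by 0.99 at 48 hours (adjusted p = 1.25e-04) and by 1.03 at 72 hours (adjusted p = 3.18e-05), a 2.04-fold rise in limma. At 6 and 12 hours the Cebpb differences were 0.07 and 0.37 and did not pass. Each later call held without any 1 of its RNAs (adjusted p at most 0.0134). On print run 1 arrays alone, where GM-CSF has only replicate 1, the 24-hour and 48-hour differences were 0.70 and 0.78 and did not pass (adjusted p = 0.0668 and 0.0523).

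Cebpd was first called at 12 hours in GM-CSF. Cebpb differed by 0.37 at that time without passing, and the timing of the 2 genes was not tested against each other. The level of Cebpd was -0.02 and 0.54 at 12 hours in GM-CSF, against -0.61 and -0.45 in parental cells at 0 hours. Replicate 2 was the higher one in GM-CSF. The difference was 0.79 at 12 hours (SE 0.17, adjusted p = 0.0140), 0.90 at 24 hours (adjusted p = 0.00608), 0.77 at 48 hours (adjusted p = 0.0208) and 0.86 at 72 hours (adjusted p = 0.00293). At 6 hours it was -0.31 (SE 0.17, adjusted p = 0.539), below 0 in both replicates. The 4 arrays at 72 hours read 0.49, 0.77, 0.80 and 1.23. All 4 calls were lost without parental 0 hours replicate 1 (0.71, 0.81, 0.68 and 0.77, adjusted p = 0.0574 to 0.248). The 12-hour difference was 0.50 without GM-CSF 12 hours replicate 2 and 0.41 on print run 1 arrays alone (adjusted p = 0.151 and 0.293). The 24-hour call was lost without GM-CSF 24 hours replicate 2, and the 48-hour call without either GM-CSF 48 hours replicate. On print run 1 arrays alone the 24-hour and 48-hour differences were 0.71 and 0.75 and did not pass (adjusted p = 0.127 and 0.116). With every array brought to the same spread, the 12-hour and 48-hour differences were 0.74 and 0.73 and did not pass (adjusted p = 0.0643 and 0.0801).

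Cebpa fell late in GM-CSF. Its level was -0.57 and -0.40 at 72 hours, against 0.43 and -0.06 in parental cells at 0 hours, a pair of parental replicates that lie far apart. The difference was -0.67 at 72 hours (SE 0.17, adjusted p = 0.0218), with -1.002 in replicate 1 and -0.34 in replicate 2. At 48 hours it was -0.66 (adjusted p = 0.0617). At 24 hours the Cebpa arrays split by replicate, at -0.50 and -0.45 in replicate 1 on print run 1 and 0.57 and 0.996 in replicate 2 on print run 2. The 72-hour call was lost without GM-CSF 72 hours replicate 1 (-0.58) or replicate 2 (-0.77) and without parental 0 hours replicate 1 (-0.42, adjusted p = 0.429). It was also lost on direct arrays alone (-0.66, adjusted p = 0.0536) and with every array brought to the same spread (-0.57, adjusted p = 0.0591). With that spread the 12-hour and 48-hour Cebpd calls were lost as well, which left 5 calls in GM-CSF, all higher, 3 of Cebpb and 2 of Cebpd. Cebpg did not pass at any time in GM-CSF: its differences ran between -0.39 at 48 hours (adjusted p = 0.0837) and -0.05 at 6 hours. Over all 5 times together, limma's F test called Cebpa (adjusted p = 0.0129), Cebpb (adjusted p = 5.66e-06) and Cebpd (adjusted p = 3.96e-05), and not Cebpg (adjusted p = 0.113); 14.3% of all probes were called by it.

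In FI-Delta cells left without factor, Cebpd was the only member called. It was called at 12, 24, 48 and 72 hours, which makes 4 of 20 tests, against 5.38% of all probe tests there, and all 4 were higher, against 2.44% higher and 2.95% lower. By time, 0.725%, 5.06%, 1.42%, 4.44% and 15.3% of probes were called. The level of Cebpd was 0.46 and 0.63 at 72 hours, against -0.46 and -0.36 in FI-Delta cells at 0 hours, with no overlap. The 4 arrays at 72 hours read 0.93, 1.09, 1.14 and 1.16, a narrow spread. The difference was 0.25 at 6 hours (adjusted p = 0.746), where replicate 1 stood at 0.65 and replicate 2 at -0.14. It was 0.89 at 12 hours (SE 0.17, adjusted p = 0.00327), 0.90 at 24 hours (adjusted p = 0.00787), 0.73 at 48 hours (adjusted p = 0.0138) and 0.95 at 72 hours (adjusted p = 4.30e-04), a 1.94-fold rise. The 12-hour and 72-hour calls held without any 1 of their RNAs. The 4 arrays at 12 hours read 0.33, 0.55, 0.75 and 0.90, and their mean of 0.63 was below the fitted 0.89. The 24-hour call was lost without FI-Delta 24 hours replicate 2 (0.92) or FI-Delta 0 hours replicate 1 (0.85) or 2 (0.96), and the 48-hour call without any 1 of its 4 RNAs (0.67 to 0.78). With every array brought to the same spread, Cebpd at 48 hours was 0.64 (adjusted p = 0.0848).

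Cebpb in FI-Delta cells was above its 0-hour level at all 5 times without passing. The differences were 0.10, 0.30, 0.47, 0.39 and 0.31 at 6, 12, 24, 48 and 72 hours, with the lowest adjusted p of 0.0661 at 24 hours. Its 0-hour level, 0.02 as a mean in FI-Delta cells, compares with -0.56 in parental cells. In the fit of the 58 pair means, which counts pairs that share RNAs as independent, 4 of these 5 differences passed (adjusted p = 6.67e-05 to 0.00727). Cebpa was at -0.71 and -0.23 after 72 hours, against 0.04 and -0.05 in FI-Delta cells at 0 hours, and the difference of -0.46 (SE 0.17) did not pass (adjusted p = 0.0775). Cebpg differed by -0.35 at 48 hours (adjusted p = 0.0728) and by -0.11 at 72 hours (adjusted p = 0.581). The F test over the 5 times called Cebpd (adjusted p = 8.36e-04) and no other member, with Cebpb next (adjusted p = 0.0711), against 12.5% of all probes.

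In V449E cells left without factor, Cebpd rose for a time and was near its 0-hour level again at 48 and 72 hours. Of 20 tests 2 were called, both Cebpd, against 0.685% of all probe tests, and both higher, against 0.327%. By time, 0.702%, 1.28%, 1.45%, 0.00459% and 0% of probes were called. Cebpd stood at 0.20 and 0.21 at 12 hours in V449E cells, against -0.57 and -0.51 in V449E cells at 0 hours, and the arrays read 0.59, 0.74, 0.90 and 0.93. The difference was 0.58 at 6 hours (SE 0.17, adjusted p = 0.142), 0.75 at 12 hours (adjusted p = 0.0268), 0.66 at 24 hours (adjusted p = 0.0494), 0.01 at 48 hours and 0.16 at 72 hours. Both calls were lost without any 1 of their 4 RNAs, at 0.71 to 0.78 at 12 hours and 0.59 to 0.73 at 24 hours. With every array brought to the same spread they were 0.73 and 0.70 (adjusted p = 0.0711 and 0.0595). The 24-hour call was also lost on print run 1 arrays alone (0.65), with probes of a gene averaged (adjusted p = 0.0506) and with a robust variance prior (adjusted p = 0.0546). The F test over the 5 times called Cebpd (adjusted p = 0.0115) and held in every alternative and without any 1 RNA; 4.46% of all probes were called by it.

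The other members did not pass at any time in V449E cells. At 72 hours Cebpa differed by 0.03 (95% interval -0.33 to 0.39), Cebpb by -0.12 (-0.38 to 0.15) and Cebpg by 0.08 (-0.14 to 0.31), and none passed. No probe of the array passed at 72 hours in V449E cells. Of the 4 members, 0 had an unadjusted p under 0.05 in limma there. In the fit of the pair means and on the direct arrays Cebpd at 12 and 24 hours remained the calls. Cebpd at 6 hours was added (0.58, adjusted p = 0.00344, and 0.63, adjusted p = 0.0380). Both of these fits count pairs that share RNAs as independent.

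V449E and FI-Delta cells at the same time were the comparison in which all 4 members were called. Cebpa and Cebpg were higher and Cebpb and Cebpd lower in V449E cells at 48 and 72 hours. Of 24 tests 9 were called, against 5.08% of all probe tests; 4 were higher, against 2.52%, and 5 lower, against 2.56%. At 6, 12 and 24 hours 0.817%, 1.11% and 3.37% of probes were called, and 0, 0 and 1 members. At 72 hours all 4 members passed, against 16.7% of all probes, and at 48 hours all 4, against 8.28%.

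Cebpb at 72 hours stood at -0.50 and -0.42 in V449E cells, against 0.31 and 0.36 in FI-Delta cells. The 4 arrays read -1.13, -0.86, -0.81 and -0.52, all below 0. The difference was -0.61 at 24 hours (SE 0.13, adjusted p = 0.00631), -0.75 at 48 hours (adjusted p = 3.64e-04) and -0.80 at 72 hours (adjusted p = 1.04e-04). Before that it was -0.37, -0.40 and -0.50 at 0, 6 and 12 hours and did not pass (adjusted p = 0.527, 0.216 and 0.0622). The 24-hour call was lost without V449E 24 hours replicate 1 (-0.50) or FI-Delta 24 hours replicate 2 (-0.53). The 48-hour and 72-hour calls held in every alternative and without any 1 RNA.

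Cebpd at 72 hours stood at -0.43 and -0.32 in V449E cells, against 0.46 and 0.63 in FI-Delta cells. The arrays read -1.002, -0.81, -0.79 and -0.72. The difference was -0.85 at 48 hours (SE 0.17, adjusted p = 0.00166) and -0.92 at 72 hours (adjusted p = 4.27e-04), and both calls held in every alternative and without any 1 RNA. Between 0 and 24 hours it lay between -0.37 and 0.20 and did not pass.

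Cebpa at 72 hours stood at 0.48 and 0.32 in V449E cells, against -0.71 and -0.23 in FI-Delta cells, and the groups did not overlap. The arrays read 1.27 and 1.21 in replicate 1 and 0.93 and -0.07 in replicate 2, so 3 of 4 were above 0. The difference was 0.76 at 48 hours (SE 0.17, adjusted p = 0.00545) and 0.87 at 72 hours (adjusted p = 9.82e-04), a 1.83-fold difference. Without FI-Delta 72 hours replicate 1 the 72-hour difference was 0.61 and did not pass (adjusted p = 0.0569). Without V449E 48 hours replicate 2 or FI-Delta 48 hours replicate 2 the 48-hour differences were 0.74 and 0.60 (adjusted p = 0.0573 and 0.113). From 0 to 24 hours Cebpa was above FI-Delta in both replicates at each time, by 0.38 to 0.48, and did not pass.

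Cebpg at 72 hours stood at 0.22 and 0.56 in V449E cells, against -0.10 and -0.11 in FI-Delta cells. The arrays read 0.29, 0.33, 0.41 and 0.99, all above 0. The difference was 0.43 at 48 hours (SE 0.11, adjusted p = 0.0121) and 0.49 at 72 hours (adjusted p = 0.00242), a 1.41-fold difference. It was lost without V449E 72 hours replicate 2 at 72 hours (0.32, adjusted p = 0.108), and without V449E 48 hours replicate 2 (0.34) or FI-Delta 48 hours replicate 1 (0.39) at 48 hours. At the 4 earlier times it lay between 0.21 and 0.30.

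At 0 hours, with both lines in IL-3, none of the 4 members passed between V449E and FI-Delta cells, against 0.225% of all probes; 3 had an unadjusted p under 0.05 in limma (Cebpa 0.38, Cebpb -0.37, Cebpg 0.30). The fit of the pair means, which counts pairs that share RNAs as independent, called these 3 (adjusted p = 0.0131, 2.06e-05 and 3.66e-04). The change of the difference after 0 hours did not pass for any member. At 72 hours it was -0.79 for Cebpd (SE 0.24, adjusted p = 0.0655), -0.43 for Cebpb (adjusted p = 0.212), 0.49 for Cebpa (adjusted p = 0.320) and 0.19 for Cebpg (adjusted p = 0.599), against 3.59% of all probes called. The F test of that change over the 5 times gave Cebpd an adjusted p of 0.0621, against 0.94% of all probes called.

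**Figure D2:**
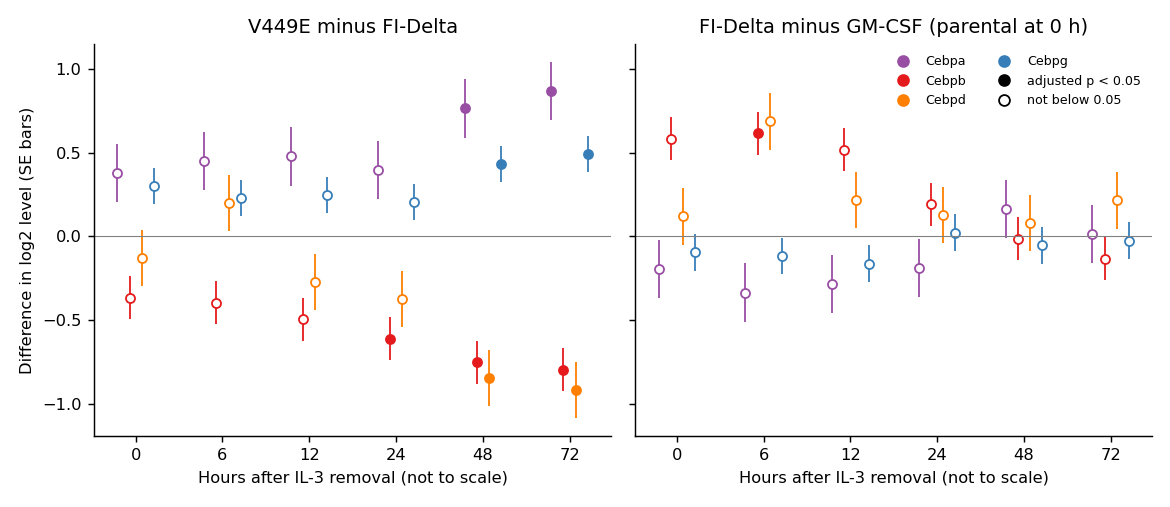
Difference in log2 level (vertical axis, bars are the SE of the fit) of V449E over FI-Delta cells (left) and of FI-Delta over GM-CSF or, at 0 hours, parental cells (right), by hours after IL-3 removal; filled points passed. On the left, Cebpa and Cebpg lie above 0 at all 6 times and Cebpb below 0, and Cebpd separates at 48 hours (-0.85).

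Between FI-Delta cells and parental cells in GM-CSF, Cebpb passed at 6 hours and no member passed at a later time. At 0 hours in IL-3, Cebpb already differed by 0.58 between FI-Delta and parental cells, without passing (adjusted p = 0.0923 in limma). Its change from 0 to 6 hours differed between the 2 courses by 0.03 (SE 0.18) and did not pass. Of 20 tests 1 was called, Cebpb at 6 hours, higher, against 0.429% of all probe tests and 0.301% higher. By time, 0.491%, 0.307%, 0.174%, 0.289% and 0.885% of probes were called. Cebpb stood at 0.34 and -0.09 in FI-Delta cells at 6 hours, against -0.39 and -0.59 in GM-CSF, and all 4 arrays were above 0, between 0.34 and 0.71. The difference was 0.62 at 6 hours (SE 0.13, adjusted p = 0.0221), 0.52 at 12 hours (adjusted p = 0.0849), 0.19 at 24 hours, -0.01 at 48 hours and -0.13 at 72 hours. The call was lost without FI-Delta 6 hours replicate 1 (0.39, adjusted p = 0.485), GM-CSF 6 hours replicate 1 (0.72) or replicate 2 (0.51), and on print run 1 arrays alone (0.51, adjusted p = 0.262). Cebpd at 6 hours differed by 0.69 (SE 0.17, adjusted p = 0.0720) and did not pass, with 1.12 in replicate 1 and 0.26 in replicate 2. Its level in FI-Delta cells at 6 hours was 0.19 in replicate 1 and -0.50 in replicate 2. Without that lower replicate the difference was 1.05. At 72 hours the differences were 0.02 for Cebpa (95% interval -0.34 to 0.38), -0.13 for Cebpb (-0.40 to 0.13), 0.21 for Cebpd (-0.13 to 0.56) and -0.03 for Cebpg (-0.25 to 0.20).

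Before IL-3 was removed, none of the 8 tests of V449E or FI-Delta cells against parental cells was called in limma, against 0.42% of all probe tests (0.734% for V449E and 0.106% for FI-Delta cells), and 1 had an unadjusted p under 0.05. That was Cebpb, at -0.01 and 0.06 in FI-Delta cells, against -0.57 and -0.55 in parental cells. The 4 arrays read 0.44, 0.50, 0.57 and 0.59, and the difference was 0.58 (SE 0.13, adjusted p = 0.0923). It passed on the direct arrays alone (0.52, adjusted p = 0.0282) and in the fit of the pair means (adjusted p = 8.05e-10), where 3 of the 8 tests passed. Both fits count pairs that share RNAs as independent, and the share of all probes called in them was not counted. V449E against parental cells at 0 hours is the comparison made on both print runs. The pair means of Cebpb there were 0.55 and 0.35 on print run 2, against 0.11 and -0.02 on print run 1, and those of Cebpd were 0.19 and 0.15, against -0.15 and -0.23. The part of the print run in the GM-CSF results was not tested beyond the values on print run 1 arrays, where 5 of the 8 GM-CSF calls were lost (Cebpb at 24 and 48 hours and Cebpd at 12, 24 and 48 hours).

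The response of V449E cells after 0 hours was also set against that of parental cells in GM-CSF in the same fit. For Cebpb the responses at 72 hours were -0.12 in V449E cells and 1.03 in GM-CSF, and the difference of -1.15 passed (SE 0.18, adjusted p = 0.00195, with -0.98 and -1.32 in the replicates), against 0.629% of all probes. The F test over the 5 times called Cebpb (adjusted p = 6.09e-04) and Cebpd (adjusted p = 0.00188), against 1.29% of all probes, and neither Cebpa (adjusted p = 0.15) nor Cebpg (adjusted p = 0.755). For Cebpd the difference was 0.90 at 6 hours, -0.76 at 48 hours and -0.69 at 72 hours, with no single time passing. Cebpb also passed at 48 hours (-0.98, adjusted p = 0.0152). On print run 1 arrays alone the F test no longer called Cebpb (adjusted p = 0.142). The response of FI-Delta cells minus that in GM-CSF gave Cebpb -0.72 at 72 hours (SE 0.18, adjusted p = 0.398), and no member passed by the F test (lowest adjusted p = 0.949), against 0.00459% and 0.00918% of all probes. The V449E and FI-Delta sets share no 0-hour RNA with each other, while each GM-CSF difference uses the parental RNAs at 0 hours.

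**Figure D3:**
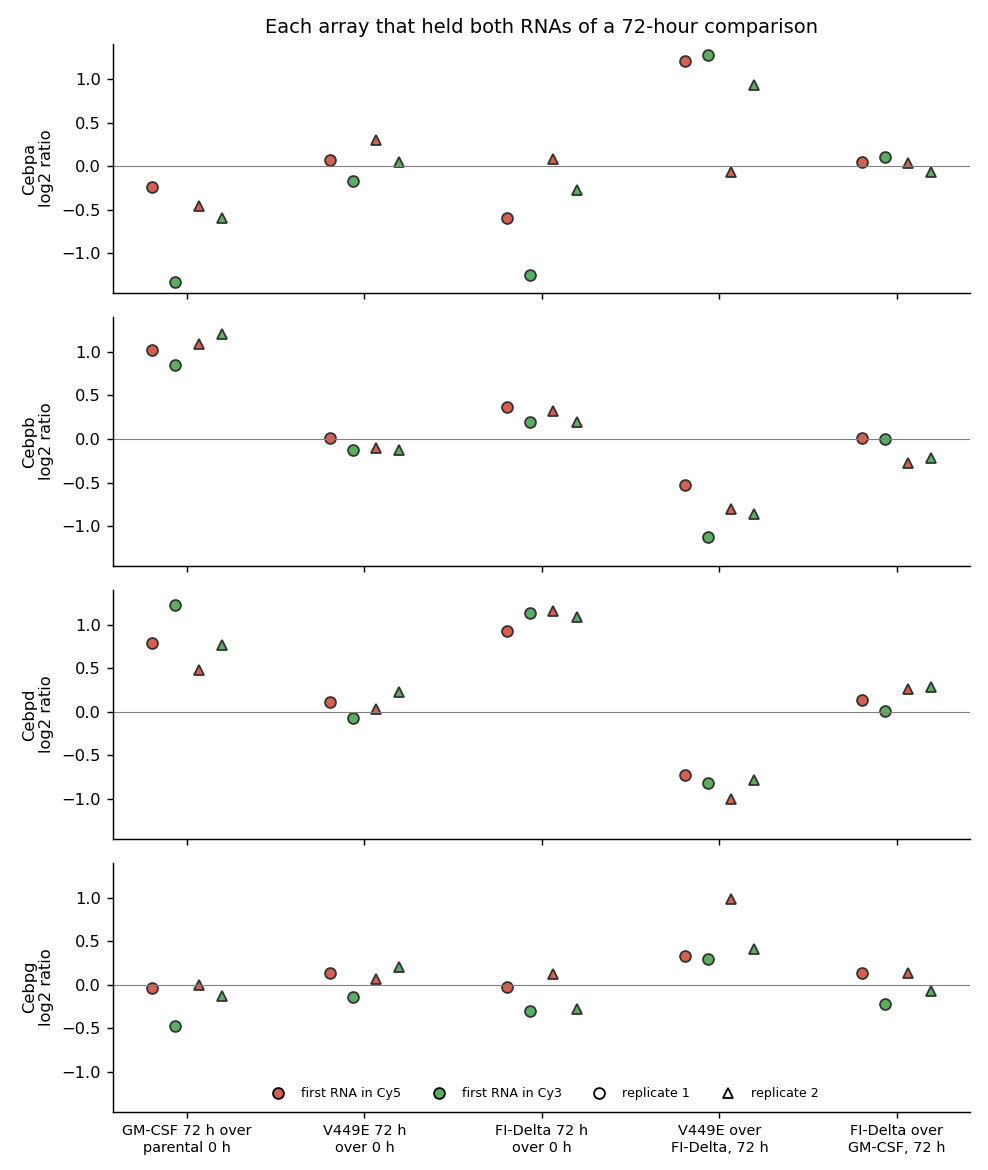
Log2 ratio on each array (vertical axis) that held both RNAs of a 72-hour comparison, first-named RNA over second, for each C/EBP gene; circles are replicate 1, triangles replicate 2, and colour gives the dye of the first RNA. All 4 Cebpb arrays of V449E over FI-Delta lie below 0, and 1 of the 4 Cebpa arrays there, at -0.07, lies apart from the others.

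The member probes also showed dye effects. The mean of the 2 arrays of a pair, before turning the sign, had a median over 58 pairs of 0.06 for Cebpa, 0.03 for Cebpb, -0.11 for Cebpd and 0.08 for Cebpg, and for Cebpa it ran from -0.68 to 0.64. The arrays of a pair had opposite signs, as a dye swap gives, in 44 pairs for Cebpa, 48 for Cebpb, 47 for Cebpd and 45 for Cebpg.

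Across the 18 condition means the 4 genes formed pairs. Cebpb and Cebpd correlated at r = 0.81 and Cebpa and Cebpg at r = 0.76. Cebpa correlated with Cebpb at r = -0.78 and Cebpg with Cebpb at r = -0.80, while Cebpd stood at r = -0.63 with Cebpg and r = -0.51 with Cebpa. These points share arrays and 0-hour RNAs and describe 18 conditions. How many other pairs of probes correlate as highly was not counted. The probes most like Cebpb, by Pearson correlation over the same 18 means, were Siglece (r = 0.963), which encodes a sialic acid receptor of myeloid cells, Pilra (r = 0.961), which encodes an inhibitory receptor, and Bcl2a1d (r = 0.960), of the BCL2 family. Those most like Cebpa were 2 probes of Tcrb-V8.2, a T cell receptor beta segment (r = 0.957 and 0.945), and Fut7 (r = 0.946), the fucosyltransferase of selectin ligands. For Cebpd they were Tmem38b (r = 0.924), Mpp1 (r = 0.909) and Fbp2 (r = 0.901), and for Cebpg St6gal1 (r = 0.943), Trim16 (r = 0.940) and another Tcrb-V8.2 probe (r = 0.925).

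**Figure D4:**
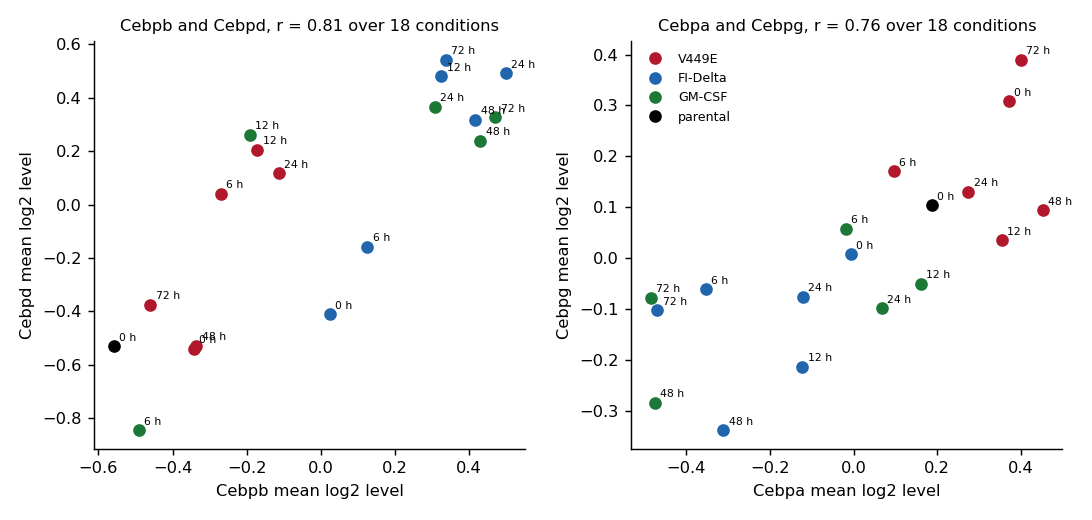
Mean log2 level of Cebpd against Cebpb (left) and of Cebpg against Cebpa (right) in the 18 conditions, coloured by line and marked with the hours. The pairs correlate at r = 0.81 and r = 0.76, and V449E cells hold the highest mean of each gene in the right-hand plot.

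Genes known as partners, regulators and targets of the family were counted at 72 hours, with probes of a gene averaged. Some of the lists and markers below share genes, so their counts are not separate from each other. Of all 15097 genes, 3.82% rose and 3.41% fell in GM-CSF, 7.85% rose and 10.7% fell in FI-Delta cells, and 10.8% were higher and 8.86% lower in V449E than in FI-Delta cells, and each count below stands against these shares. Among targets of the late granule program, for which C/EBP epsilon is required, 4 of 15 rose in GM-CSF and none fell, with a median difference of 0.32 against 0.003 over all genes. Mmp8, the neutrophil collagenase, was at 2.20 (SE 0.22) and Lcn2, a granule lipocalin, at 1.38. In FI-Delta cells 11 of 15 rose and none fell, with a median of 0.84; Ltf, lactoferrin, was at 2.68 and Camp, cathelicidin, at 1.79. V449E cells had 12 of 15 lower than FI-Delta cells and none higher, with a median of -1.44. Ltf was at -4.06 and Lcn2 at -3.29 on the log2 scale. Here and below, list counts between these 2 lines at 72 hours include any difference at 0 hours, which was not counted. In V449E cells the 15 genes lay between -0.27 and 0.67 at 72 hours against 0 hours. In FI-Delta against parental cells at 0 hours 1 of 15 was higher and none lower. The share of all probes in that comparison, called in either direction and not averaged by gene, was 0.106%. The median of the list there was -0.03 and the largest difference 1.31. At 12 hours the same list ran lower in GM-CSF, with 1 of 15 lower and none higher, a median of -0.28, and 6 lower and none higher at an unadjusted p under 0.05. In FI-Delta cells at 12 hours 1 was higher and none lower, with a median of 0.22. Of all genes 1.58% rose and 2.27% fell at 12 hours in GM-CSF, and 2.45% rose and 4.34% fell in FI-Delta cells.

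Primary granule and receptor genes, which include targets of C/EBP alpha, rose for 5 of 14 in GM-CSF, led by Lyz1, a lysozyme, at 1.66 and Itgam, an integrin chain, at 1.14. The 5 were lysozyme and receptor genes (Lyz1, Lyz2, Itgam, Csf2ra and Fcgr3). The primary granule enzyme genes, named here after their values were seen, lay below 0 and did not pass: Mpo was at -0.52, Elane at -0.56, Ctsg at -0.33 and Prtn3 at -0.17. At 12 hours in GM-CSF 1 of the 14 was lower and none higher, with a median of -0.19. In FI-Delta cells 5 of 14 rose as well, with Itgam at 1.07 and Csf2ra, the GM-CSF receptor alpha chain, at 0.89. In V449E cells 7 of 14 were lower than in FI-Delta cells, with Itgam at -1.41 and Prtn3, proteinase 3, at -1.32, and none was higher. Of 17 inflammatory genes, among which C/EBP beta and delta have known targets, 4 rose in GM-CSF, with Il1b, interleukin-1 beta, at 1.11 and Hp, haptoglobin, at 0.85. The same number rose in FI-Delta cells, with Il1b at 1.32 and Il1rn, the interleukin-1 receptor antagonist, at 0.74. V449E cells had 7 lower and 1 higher than FI-Delta cells, with Il1b at -2.21 and Ccl3, a chemokine, at -1.83.

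The basic leucine zipper genes other than C/EBP had 2 of 20 higher and 1 lower in GM-CSF, with Junb, an AP-1 subunit, at 0.94 and Atf4, the stress factor that pairs with C/EBP gamma, at -0.83. In FI-Delta cells 6 rose and 2 fell, with the AP-1 subunits Fos at 1.97 and Fosb at 1.77. V449E cells had 8 lower and 2 higher than FI-Delta cells, with Fos at -1.74 and Fosb at -1.68. Of 19 ATF4 target genes 5 fell in GM-CSF and none rose, with Shmt2, a mitochondrial serine enzyme, and Slc3a2, an amino acid transporter chain, each at -0.77. In FI-Delta cells 9 fell and 1 rose, with Psat1 at -1.10 and Phgdh at -1.09, both of serine synthesis. In V449E cells 10 were higher and 2 lower than in FI-Delta cells, with Psat1 at 1.01 and Chac1, of glutathione breakdown, at 0.93. At 12 hours 8 ATF4 targets were lower and 1 higher in GM-CSF, 9 and 2 in FI-Delta cells, and 7 and 1 in V449E cells, where 0.775% of all genes rose and 0.894% fell.

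Among 15 known regulators of C/EBP proteins 1 rose and 2 fell in GM-CSF. Cdk4, a cyclin-dependent kinase that C/EBP alpha binds, was at -0.54 and Calr, calreticulin, which binds Cebpa mRNA, at -0.49. FI-Delta cells had 3 higher and 2 lower, with Cdk4 at -0.85 and Calr at -0.67. V449E cells had 4 higher and 2 lower than FI-Delta cells, with Cdk4 at 0.90 and Stat5a, a cytokine signalling factor, at 0.70. These are counts of 1 to 4 genes, and nothing is read from them about the regulators as a group. Of 25 myeloid transcription factors 4 rose and 2 fell in GM-CSF, with Id2, which blocks helix-loop-helix factors, at 1.66 and Gata2, a progenitor and mast cell factor that is also among the mast cell markers below, at -1.23. In FI-Delta cells 8 rose and 4 fell, with Egr1, an immediate early factor, at 1.74 and Gata2 at -1.15, and V449E cells had 5 higher and 9 lower than FI-Delta cells, with Egr1 at -1.78 and Gata2 at 1.35. Of 25 nucleolar ribosome biogenesis genes 14 fell in GM-CSF, with Nop56 at -0.80 and the polymerase I subunit Polr1b at -0.75. In FI-Delta cells 16 fell and 1 rose, with Nop56 at -1.37 and Polr1b at -0.82, and V449E cells had 15 higher and 1 lower than FI-Delta cells, with Nop56 at 0.90 and Polr1b at 0.71.

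Markers of other cell types moved beside the C/EBP genes, and their part in the C/EBP results was not tested. Of 16 macrophage markers 9 rose in GM-CSF (Clec4n, dectin-2, at 2.34 and Ccr2, a chemokine receptor, at 1.62) and 7 in FI-Delta cells (Ctss, a cathepsin, at 1.30 and Clec4n at 1.13), with none lower in either. In V449E cells 5 were lower and 1 higher than in FI-Delta cells, with Clec4n at -1.49 and Fcgr1, an Fc receptor, at -0.999. At 0 hours 1 of the 16 was already higher in FI-Delta than in parental cells and none lower. The share of all probes in that comparison, called in either direction and not averaged by gene, was 0.106%. The median of these markers there was 0.31 and the largest difference 1.67. Of 11 mast cell and basophil markers 4 fell in GM-CSF and 4 in FI-Delta cells, and 4 were higher in V449E than in FI-Delta cells. Cpa3, the mast cell carboxypeptidase, was at -1.70, -2.87 and 3.02 in these 3 comparisons, and Fcer1a, the IgE receptor chain, was at -1.24 in FI-Delta cells and 2.14 in V449E over FI-Delta cells. Of 10 erythroid and megakaryocyte markers 2 fell in GM-CSF (Itga2b, a platelet integrin chain, at -0.89 and Hba-a1, alpha globin, at -0.72) and 1 in FI-Delta cells (Itga2b at -1.15), and V449E cells had 3 higher and 1 lower than FI-Delta cells (Itga2b at 1.14 and Hba-a1 at 0.69). Of 12 lymphoid markers none was called in GM-CSF, and 1 rose and 1 fell in FI-Delta cells (Cd3d, a T cell receptor chain, at 0.76 and Rag1, a recombinase, at -0.27). In V449E over FI-Delta cells 1 was lower and 1 higher (Cd3d at -0.86 and Rag1 at 0.24). The lymphoid counts, and the 1 erythroid marker lower in FI-Delta cells, are near the shares of all genes and are no result about these markers. In V449E cells at 72 hours 0% of all 15097 genes rose or fell against 0 hours in limma, so no gene of these lists was called. At an unadjusted p under 0.05 each list had between 0 and 2 genes in either direction. The share of all genes at that threshold was not counted.

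**Figure D5:**
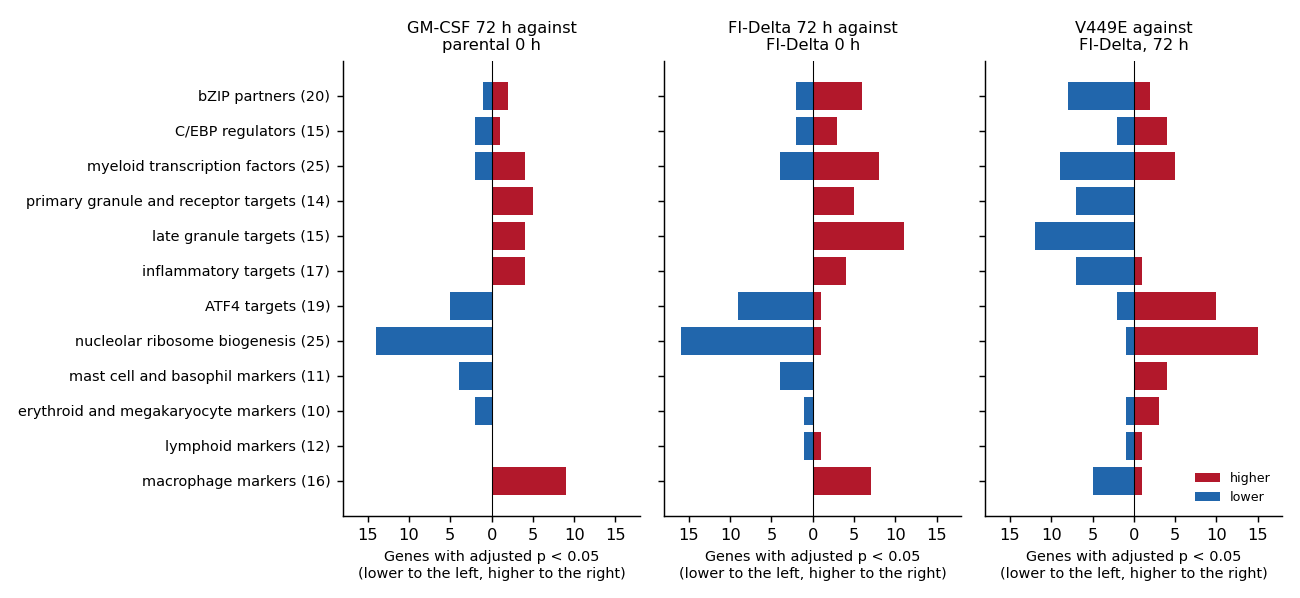
Number of genes of each list (measured genes in brackets) that passed at 72 hours, lower to the left and higher to the right, for GM-CSF over parental 0 hours, FI-Delta over its 0 hours, and V449E over FI-Delta. Late granule genes run to 11 of 15 higher in FI-Delta cells and 12 of 15 lower in V449E than in FI-Delta cells.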

How the data were processed

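Per the labels' descriptions, the authors normalised the arrays first and afterwards re-ordered spots so that print runs match; the submitters' processing notes name limma, with no version. Each deposited value was taken to be the log2 ratio of a probe. The log base, the direction, background correction and the method of normalisation are not given in the sources used here. Signal intensities were not used, so the number of arrays limits the precision.

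The 1243 control probes were left out. Symbols came from the platform annotation, updated by Entrez identifier: 16651 tested probes had 1 symbol, 137 several and 5009 none. Each dye-swap pair was averaged, least squares within each replicate gave 36 RNA levels, and limma 3.58.1 (R 4.3.3; lmFit, eBayes, 2-sided) tested them with the replicate number as a block, leaving 17 residual and 5.99 prior degrees of freedom. Every array holds RNAs of 1 replicate number, so levels are centred within a replicate and the block counts the degree of freedom that this uses. P-values were adjusted by Benjamini-Hochberg over probes within a comparison. The fit was tested on simulated data with 200 changed probes. Figures were drawn with matplotlib 3.10.9. Every member probe was tested in every comparison, and not every difference is printed. Of each gene list the 2 called genes with the largest difference at 72 hours are named, and for each member the 3 probes with the most alike pattern. Members and lists were chosen with earlier results of these data known. Alternatives were no block, a fit of the 58 pair means, direct arrays only, print run 1 only, arrays scaled to 1 spread, probes of a gene averaged, a robust prior, and each RNA left out in turn.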

Additional observations from a re-analysis of the deposited data

Results flagged for a closer look

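An array stood apart from the other 3 of its comparison in 3 of 112 groups of arrays tested, and chance flags about 1 in 20 such groups. For Cebpa in V449E cells at 24 hours over 0 hours, a replicate 2 array read 0.0136 while the others lay between -0.25 and -0.21. For Cebpa in FI-Delta cells at 48 hours over 0 hours, a replicate 1 array read 0.45 while the others lay between -0.51 and -0.39. For Cebpd in GM-CSF at 48 hours over parental cells at 0 hours, a replicate 2 array on print run 2 read 0.26 while the others lay between 0.82 and 0.93. In all 3 the outlying array carried the later RNA in Cy5.

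The responses of V449E cells and of parental cells in GM-CSF differed by the F test over the 5 times for 2 members. At 72 hours the difference was -1.15 for Cebpb, which also passed at that time alone (adjusted p = 0.00195), and -0.69 for Cebpd, which did not (adjusted p = 0.300).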

How the results depend on the processing

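Of the 24 calls, all 24 were kept without the replicate block and in the fit of the pair means, 23 on direct arrays, with probes of a gene averaged and with a robust prior, 18 with scaled arrays and 17 on print run 1 alone. No sign turned among the 49 differences with an unadjusted p under 0.05. With 1 RNA left out, 59 of 96 refits kept their call; the lone RNA is then assumed to vary like the others. Of the 24 calls 9 were lost in no such refit, and 7 of these in no other alternative either. Without the replicate block, 3 more passed: Cebpa in GM-CSF at 48 hours (adjusted p = 0.0458), Cebpb in FI-Delta cells at 24 hours (adjusted p = 0.0494) and Cebpb in V449E against FI-Delta at 12 hours (adjusted p = 0.0454).

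Calls in GM-CSF numbered 8, and 3 on print run 1 arrays and 5 with scaled arrays (3 to 10 with 1 RNA left out). Calls in V449E cells numbered 2, and 1 on print run 1 arrays, with averaged probes or a robust prior, and 0 with scaled arrays (0 to 2). Calls in FI-Delta cells numbered 4, and 11 in the fit of the pair means and 7 on direct arrays (2 to 6). V449E against FI-Delta had 9, and 14 in the fit of the pair means (7 to 11). FI-Delta against GM-CSF had 1, and 3 in the fit of the pair means and on direct arrays and 0 on print run 1 arrays (0 to 3). The mutant lines against parental cells at 0 hours had 0, and 3 in the fit of the pair means and 1 on direct arrays. The share of all probes called in each alternative fit was not counted, so these shifts in number are no result about the members.

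The F test called 1 member in V449E cells, and 2 in the fit of the pair means. In FI-Delta cells it called 1, and 4 in the fit of the pair means and 2 on direct arrays (1 to 2 with 1 RNA left out). For FI-Delta minus GM-CSF it called 0, and 1 in each of these fits. For V449E minus FI-Delta it called 0, and 1 with no replicate block, 2 in the fit of the pair means and 1 on direct arrays (0 to 1). For V449E minus GM-CSF it called 2, and 1 on print run 1 arrays. The share of all probes that the F test called in the alternative fits was not counted either, and the cause of these shifts was not tested. The fit of the pair means and the fit of direct arrays both treat the 58 pairs as independent, although pairs share RNAs. Print run 1 holds no replicate 2 RNA of the GM-CSF times.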
